A study of Nicotiana tabacum with 6 samples.

Results

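Metallothioneins are small cysteine-rich proteins that bind copper, zinc and cadmium ions through clusters of thiol groups. In plants they buffer copper and zinc, can scavenge reactive oxygen species, and their transcripts are among the most abundant in leaves of several species, often rising further as leaves senesce. The EC form, first purified from wheat germ, is typical of developing seeds. The metallothioneins described here are the gene models whose deposited description contains that word and whose mean abundance over the 6 libraries was at least 1. Of 69500 gene models listed, 7 had the word in their description and 4 of these reached that mean: Nitab4.5_0006455g0010, Nitab4.5_0002557g0020, Nitab4.5_0022803g0010 and Nitab4.5_0002018g0040. They were chosen by description and by mean abundance over both groups, so their overall level is given as a description. That rule did not use the difference between plant materials. The family itself was chosen with earlier results of these data known, so the tests of its members are not independent of those results.

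Leaf RNA was sequenced from seedlings of NC82, a tobacco (Nicotiana tabacum) variety, with young leaves sampled. Plants labelled as overexpressing NtPhyA, a gene named for phytochrome A (OE4, 3 libraries), were compared with wild-type plants (WT4, 3 libraries), and every plant in both groups had been held at 4 °C for 24 h, so no library shows leaves without cold. The labels do not name the transgene's promoter, the number of transgenic lines or the plants behind each replicate, so p-values measure the spread between libraries, which may be technical. Tobacco is an allotetraploid that carries near-identical gene copies from both parental genomes, and how reads were divided between copies is uncertain for a family of this kind.

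Values are a normalized abundance per gene model whose unit the labels and headers do not name. Library totals were 440137 to 475581 in OE4 and 450972 to 568208 in WT4, with the highest total in WT4 replicate 3. Relative depth was estimated for each library against OE4 replicate 1, as the commonest ratio of values over models above 0 in that pair alone. The estimates spanned a 1.34-fold range. Models seen in 1 library alone had values from 0.02 (5th percentile) to 1.38 (95th percentile) in OE4 replicate 1. The reads behind each such value are not known, so this range cannot show whether values were corrected for length. Comparisons of level between models below assume that the values are per length. The leaf label was checked against 93 models described as chlorophyll a/b-binding, which summed to 1969 to 9148 in OE4 and 1678 to 7099 in WT4, and 14 described as Rubisco small subunit, which summed to 11895 to 29354 in OE4 and 6560 to 22073 in WT4. The 25 models described as oleosin or vicilin, seed proteins picked out after the values were seen, summed to 12.3 to 20.8 in OE4 and 14.3 to 24.5 in WT4. Phytochrome models were those with the word in their description, except where a term for regulation or interaction came after it. Any models left out this way were not summed. The 10 models so picked, of which 6 were above 0 in some library, summed to 9.75, 3.82 and 4.36 in OE4 replicates 1, 2 and 3. In WT4 replicates 1, 2 and 3 they summed to 9.40, 4.57 and 1.60. The groups overlapped, so overexpression was not seen in these models, and the group name OE4 follows the labels alone. No label ties the transgene to any of these models.

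The family was dominated by a single model. Nitab4.5_0006455g0010, described like the other 3 expressed models as a plant metallothionein of family 15, held 65.5% to 86.3% of the summed abundance of the 4 models in every library. It was among the 16 most abundant of all 69500 models in each library, at rank 4 in WT4 replicate 3 and rank 16 in WT4 replicate 2. Its abundance was 2178, 1767 and 1870 in OE4 replicates 1, 2 and 3, against 2517, 1542 and 4741 in WT4 replicates 1, 2 and 3. The OE4 libraries lay close together and inside the WT4 range, and WT4 replicate 3 stood far above the other 5 libraries. The means were 1938 ± 214 in OE4 and 2933 ± 1640 in WT4 (SD, n = 3 each). The log2 difference, OE4 minus WT4, was -0.45 ± 0.46 (SE; 95% interval -1.53 to 0.63; limma adjusted p = 0.999). Without WT4 replicate 3 it was -0.03, and without WT4 replicate 2 it was -0.84, with adjusted p of 1 and 0.995.

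Nitab4.5_0002557g0020 was the second most abundant by mean and the steadiest of the 4, its highest library being 2.30 times its lowest. It was at 255, 341 and 402 in OE4 replicates 1, 2 and 3, and at 299, 356 and 585 in WT4 replicates 1, 2 and 3. The groups overlapped, with WT4 replicate 3 the only library above every OE4 library and OE4 replicate 1 the only one below every WT4 library. The means were 333 ± 74 in OE4 and 414 ± 151 in WT4 (SD, n = 3 each), and the log2 difference was -0.28 ± 0.36 (SE; limma adjusted p = 0.999; 95% interval -1.12 to 0.57). Without WT4 replicate 3 the difference was 0.0018, so its direction rests on that library.

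Nitab4.5_0022803g0010 had the largest difference of the family and the widest spread. It was at 77.1, 185 and 343 in OE4 replicates 1, 2 and 3, against 218, 454 and 696 in WT4 replicates 1, 2 and 3. The 2 lowest libraries were OE4 and the 2 highest WT4, with OE4 replicate 3 above WT4 replicate 1, so the groups overlapped. The means were 202 ± 134 in OE4 and 456 ± 239 in WT4 (SD, n = 3 each). On the log2 scale OE4 was at -1.26 ± 0.64 relative to WT4 (SE; 95% interval -2.76 to 0.23). This corresponds to 0.416 of the WT4 level, with an interval from 0.148 to 1.17. The unadjusted limma p was 0.0860 and the adjusted p 0.999, so the difference did not pass the test, although it was larger than the within-group SD of 0.97 log2 units. An absolute difference of this size or larger was seen in 1.65% of all 17962 tested models. Of these only 852 had a mean of at least 100, and the share among those was not counted. Leaving out OE4 replicate 1 brought the difference to -0.70. Without OE4 replicate 3 it was -1.77 (limma unadjusted p = 0.0248, adjusted p = 0.862). Without WT4 replicate 1 it was -1.72 (limma unadjusted p = 0.0330, adjusted p = 0.916). In the other fits with 1 library left out the unadjusted limma p was 0.137 to 0.270.

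Nitab4.5_0002018g0040 was the least abundant member and the only one with a higher mean in OE4. It was at 13.0, 9.55 and 3.23 in OE4 replicates 1, 2 and 3, against 3.75, 3.72 and 6.63 in WT4 replicates 1, 2 and 3. The pair of highest values were OE4 libraries, but OE4 replicate 3 was the lowest of all 6. The means were 8.60 ± 4.96 in OE4 and 4.70 ± 1.67 in WT4 (SD, n = 3 each), and the log2 difference was 0.62 ± 0.48 (SE; limma adjusted p = 0.999; 95% interval -0.50 to 1.75). Without OE4 replicate 1 the difference was 0.27, and without OE4 replicate 3 it was 1.13 with an unadjusted p of 0.0135 and an adjusted p of 0.862.

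**Figure D1:**
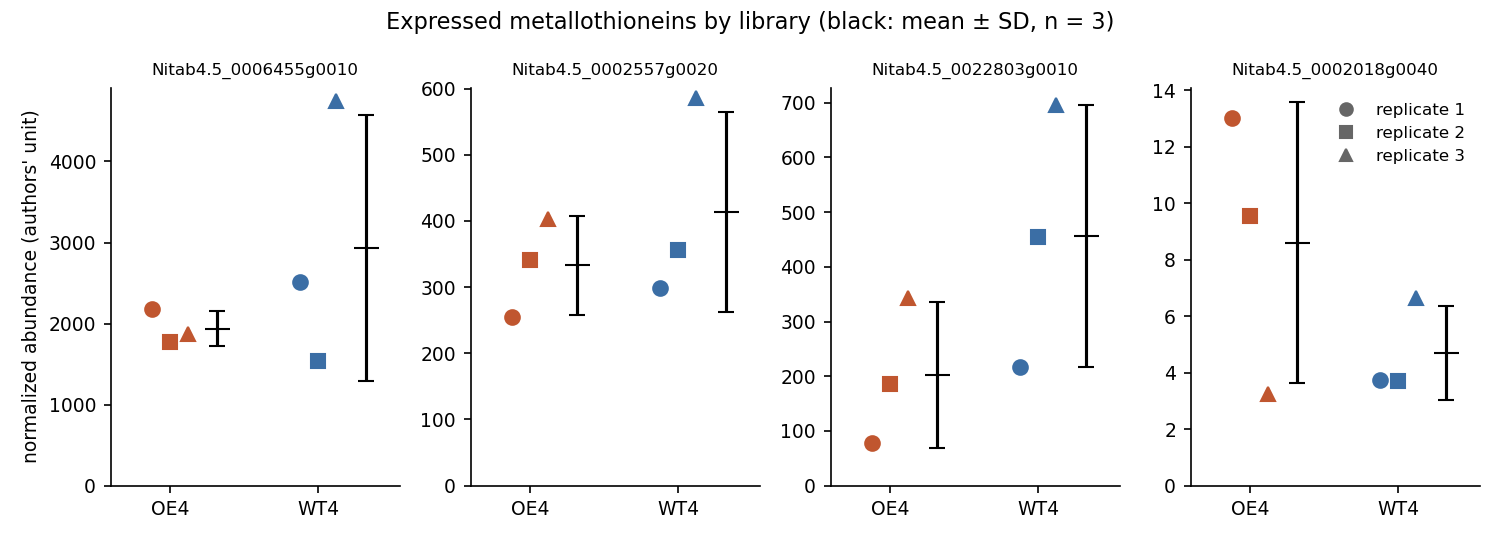
Normalized abundance (vertical axis, linear, each panel on its own scale) of the 4 expressed metallothioneins in the 3 OE4 and 3 WT4 libraries, with marker shape for the replicate number and black bars for mean ± SD (n = 3). The groups overlap in all 4 panels, and WT4 replicate 3 is the highest library for the 3 abundant models.

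None of the 4 models passed the limma threshold of an adjusted p below 0.05, and 0 of 4 had an unadjusted p below 0.05. Over the 17962 models tested, 1 passed, or 0.00557%, and 507, or 2.82%, had an unadjusted p below 0.05. In 0 of 4 metallothioneins were the groups free of overlap, against 7.87% of all tested models. The 3 abundant models had lower means in OE4 and the least abundant a higher one. Their median log2 difference was -0.36, beside -0.01 over all tested models. The intervals leave room for changes of either sign in each of the 4, so a missing call does not show that the plant materials were alike.

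**Figure D2:**
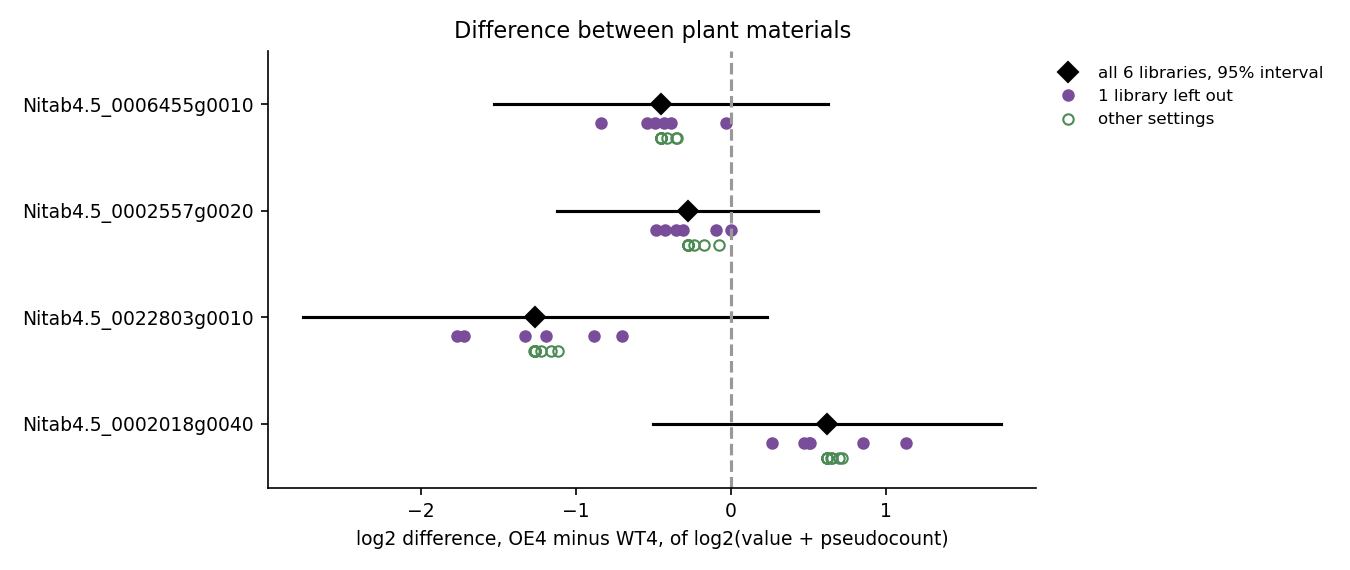
Log2 difference, OE4 minus WT4, of each expressed metallothionein, with the limma estimate and its 95% interval (black), the estimates with 1 library left out (filled circles) and those under the other settings (open circles). Every interval spans 0, and the estimates for Nitab4.5_0006455g0010 and Nitab4.5_0002557g0020 reach about 0 when WT4 replicate 3 is left out.

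Summed over the 4 models, metallothionein abundance was 2523, 2303 and 2618 in OE4 replicates 1, 2 and 3, against 3037, 2356 and 6029 in WT4 replicates 1, 2 and 3. The sums averaged 2481 ± 162 in OE4 and 3807 ± 1954 in WT4 (SD, n = 3 each), a log2 ratio of group means of -0.62 that was -0.12 without WT4 replicate 3. As a share of all abundance in the library, the family made up 0.545 ± 0.044% in OE4 and 0.748 ± 0.280% in WT4, with 1.06% in WT4 replicate 3. That library therefore remained the highest after its larger total was taken into account. Scaled to equal totals, Nitab4.5_0006455g0010 was at 2007 ± 158 in OE4 and 2715 ± 1169 in WT4.

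Ratios between members of the same library do not depend on any factor by which the whole library was scaled. Nitab4.5_0022803g0010 relative to Nitab4.5_0002557g0020 was 0.303, 0.543 and 0.853 in OE4 replicates 1, 2 and 3, against 0.727, 1.27 and 1.19 in WT4 replicates 1, 2 and 3. In OE4 Nitab4.5_0002557g0020 was the more abundant of the pair in all 3 libraries, while in WT4 Nitab4.5_0022803g0010 was the more abundant in 2 of 3. The ratios of the groups overlapped, since OE4 replicate 3 lay above WT4 replicate 1. By mean over 6 libraries the order of levels was 2436, 373, 329 and 6.65. The neighbours at 373 and 329 did not differ beyond their spread, and the other steps in the order held in every library. Nitab4.5_0022803g0010 took 3.06% to 13.1% of the summed abundance in OE4 and 7.17% to 19.3% in WT4, again overlapping.

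**Figure D3:**
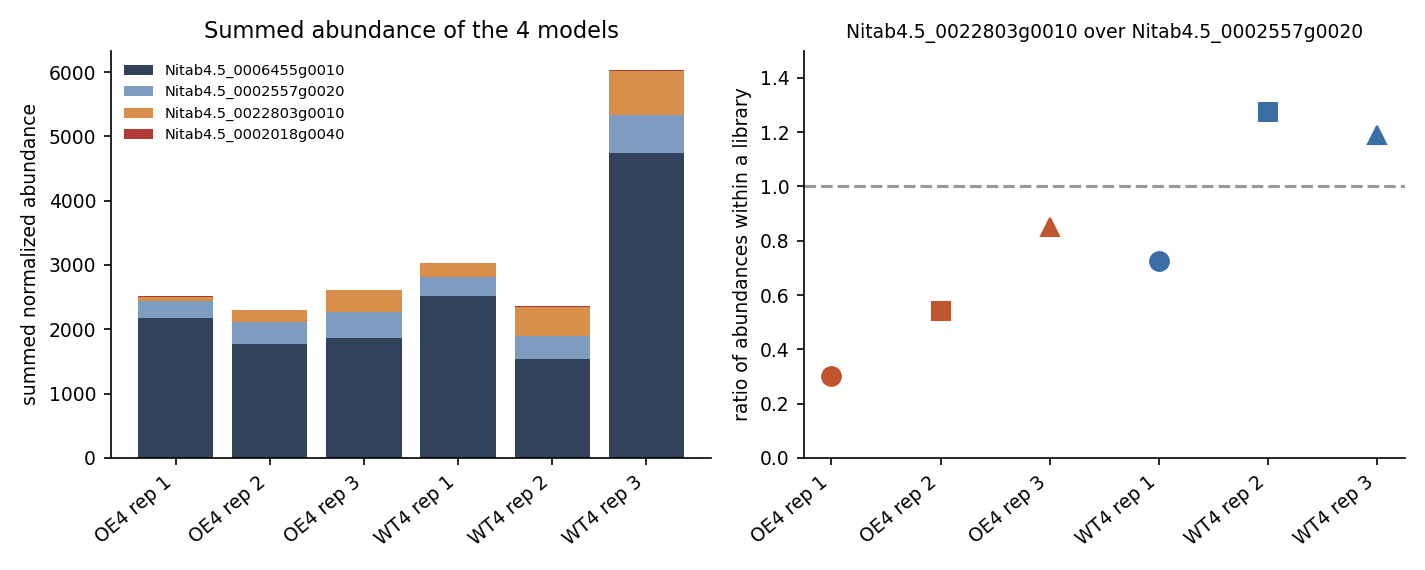
Left, summed normalized abundance of the 4 metallothioneins per library, split by model. Right, the ratio of Nitab4.5_0022803g0010 to Nitab4.5_0002557g0020 within each library, with the dashed line at 1; the 3 OE4 libraries lie between 0.303 and 0.853 and the 3 WT4 libraries between 0.727 and 1.27.

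The members differed in how much they varied among libraries of the same plant material. The within-group SD of Nitab4.5_0022803g0010 was larger than that of 89.0% of the 852 tested models with a mean of at least 100. For Nitab4.5_0006455g0010 it was 0.58 and for Nitab4.5_0002557g0020 it was 0.43, beside a median of 0.44 for those 852 models. For Nitab4.5_0002018g0040 it was 0.70, beside a median of 0.43 for all tested models. In both plant materials the library with the most Nitab4.5_0022803g0010 had the smallest summed abundance of chlorophyll a/b-binding models, the antenna proteins of photosynthesis. These sums were 9148, 5094 and 1969 in OE4 replicates 1, 2 and 3, and 7099, 3588 and 1678 in WT4 replicates 1, 2 and 3. Rubisco small subunit models ran the same way, at 29354, 18662 and 11895 in OE4 replicates 1, 2 and 3 and at 22073, 12152 and 6560 in WT4 replicates 1, 2 and 3. Within each group the order of the libraries for Nitab4.5_0022803g0010 and Nitab4.5_0002557g0020 was the reverse of that for the antenna and Rubisco sums. In both groups this order followed the replicate number, with these 2 models lowest in replicate 1 and highest in replicate 3. The dominant model, Nitab4.5_0006455g0010, did not have that order in either group. It was lowest in replicate 2 of both groups, and highest in OE4 replicate 1 and WT4 replicate 3. How many of all tested models had the reverse order was not counted. Nitab4.5_0002018g0040 had the same library order as the antenna sums in OE4 but its highest WT4 value in the library with the lowest antenna sum. The part of these differences between libraries in the metallothionein values was not tested.

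Markers of other cells in a leaf sample also varied. The 160 terpene synthase models, typical of glandular trichomes, of which 89 were above 0 in some library, summed to 373 to 1052 in OE4 and 320 to 614 in WT4. The 22 histone H4 models, most active in dividing cells, of which 19 were above 0, summed to 832 to 1335 in OE4 and 649 to 749 in WT4, without overlap. Taken singly, 7.87% of all tested models had groups without overlap, and the difference in these sums was not tested. The 129 kinesin models, of which 103 were above 0, summed to 56.0 to 75.9 in OE4 and 38.0 to 60.3 in WT4, and the 2 models of a regulatory subunit of cyclin-dependent kinase, both above 0, to 47.3 to 55.1 in OE4 and 51.8 to 115 in WT4. The list written for seed proteins had 251 models, 205 of them with lipid transfer protein among the terms of their description, so it does not mark seed. It summed to 2094 to 4128 in OE4 and 2842 to 6035 in WT4. In bulk leaf RNA, fewer cells of a type and less RNA per cell cannot be told apart, and the part of cell composition in the metallothionein values was not tested.

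**Figure D4:**
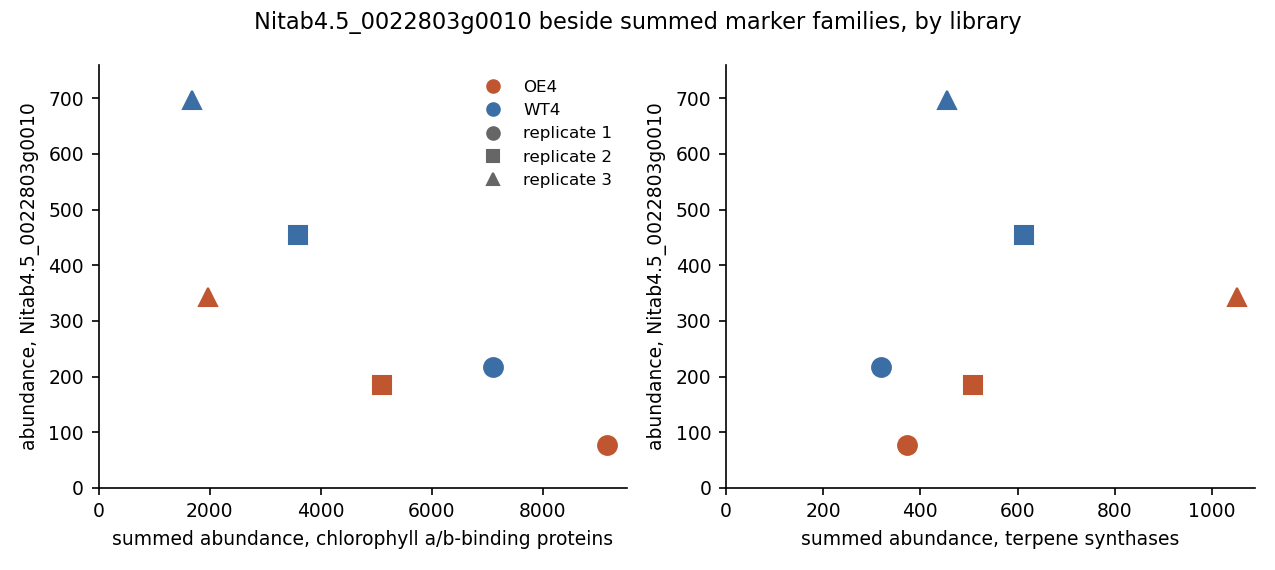
Abundance of Nitab4.5_0022803g0010 (vertical axis) against the summed abundance of chlorophyll a/b-binding models (left) and of terpene synthase models (right) in each of the 6 libraries, all axes linear in normalized abundance. Within each plant material the library with the lowest antenna sum has the highest metallothionein value, at 343 in OE4 and 696 in WT4.

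The other 3 models described as metallothioneins were far below the minimum. The nearest, Nitab4.5_0000317g0020, had a mean of 0.263, against 6.65 for the lowest member. It was at 0.12, 0.22 and 0.71 in OE4 replicates 1, 2 and 3, and at 0, 0.13 and 0.40 in WT4 replicates 1, 2 and 3. Its values lie at the level of few reads and the groups overlapped. Nitab4.5_0003635g0040, of family 15, and Nitab4.5_0000783g0120, the only model described as an EC metallothionein, were listed at 0 in all 6 libraries.

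Models with the most similar course over the 6 libraries were sought among 5582 described models with a mean of at least 10, by the root mean square difference between centred log2(value + 1) profiles. Closest to Nitab4.5_0006455g0010 were a ubiquitin-conjugating enzyme E2, Nitab4.5_0003941g0040, at a distance of 0.112 log2 units, a BRO1 domain protein, Nitab4.5_0007717g0070, at 0.116, and another E2, Nitab4.5_0005112g0020, at 0.120. The first of these was at 445, 381 and 370 in OE4 replicates 1, 2 and 3 and at 470, 352 and 866 in WT4 replicates 1, 2 and 3. Like the metallothionein, it was highest in WT4 replicate 3. In the other libraries it ran from 352 to 470, and the metallothionein from 1542 to 2517. Closest to Nitab4.5_0022803g0010 were a UDP-glycosyltransferase, Nitab4.5_0000555g0150, at 0.185, a heat shock transcription factor, Nitab4.5_0002328g0020, at 0.208, and Nitab4.5_0001707g0060, at 0.252. The last is described by a helical domain shared by bifunctional inhibitors, lipid transfer proteins and seed storage proteins. The glycosyltransferase was at 12.3, 33.2 and 79.5 in OE4 replicates 1, 2 and 3 and at 39.5, 73.9 and 153 in WT4 replicates 1, 2 and 3. Its lowest library was OE4 replicate 1 and its highest WT4 replicate 3, as for the metallothionein, and its groups overlapped. The likeness rests on 6 libraries that share their depth and composition, and is a description.

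Other genes that handle metal ions were followed through 9 lists of descriptions, which together held 271 models, of which 111 were tested. By limma 0 of the 111 were called, and 5, or 4.50%, had an unadjusted p below 0.05, beside 2.82% of all tested models. Of the 111, 54 were higher and 57 lower in OE4, with a median log2 difference of -0.01, equal to that of all tested models at this precision. All adjusted p-values in these lists were 0.999.

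Uptake and efflux carriers showed no shared direction. Of 8 tested zinc/iron permeases, which import zinc and iron, 4 were higher and 4 lower in OE4, with a median log2 difference of 0.10. The most abundant, Nitab4.5_0008682g0020, was at 64.8 ± 18.0 in OE4 and 58.9 ± 25.9 in WT4 (SD, n = 3 each). Of 3 tested copper transporters of the Ctr family, 1 was higher and 2 lower in OE4. The most abundant, Nitab4.5_0009849g0010, was at 72.0 ± 10.1 in OE4 and 75.1 ± 17.1 in WT4. Of 7 cation efflux proteins, which move zinc or manganese out of the cytosol, 5 were higher in OE4, with a median of 0.22. The most abundant, Nitab4.5_0002988g0010, was at 40.2 ± 9.2 in OE4 and 44.1 ± 4.1 in WT4. Of 6 models of the NRAMP family of metal transporters, 1 of them described as the ethylene signalling protein EIN2, 5 were higher in OE4, with a median of 0.16. The most abundant, Nitab4.5_0001119g0080, was at 14.5 ± 5.5 in OE4 and 12.8 ± 3.0 in WT4.

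Metal-binding and chelating proteins were likewise mixed. The heavy metal-associated domain, which binds copper, zinc or cadmium in chaperones and metal-pumping ATPases, was described in 60 tested models, of which 25 were higher and 35 lower in OE4, with a median of -0.11 and a range from -2.49 to 1.19. The most abundant, Nitab4.5_0007116g0010, was at 95.7, 165 and 282 in OE4 replicates 1, 2 and 3 and at 152, 169 and 473 in WT4 replicates 1, 2 and 3, with its lowest library the same as that of Nitab4.5_0022803g0010 and its highest again WT4 replicate 3. The ferritin list had 15 tested models, of which 3 were ferritins proper, the iron storage protein, and 12 carried the ferritin-like fold alone. Its most abundant ferritin, Nitab4.5_0005049g0020, was at 322 ± 97 in OE4 and 285 ± 55 in WT4. In this leaf it stood at a level near that of the middle metallothioneins, if values are per length.

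Among enzymes that make small chelators, 5 models for phytochelatin synthase or glutathione synthesis were tested, 3 higher and 2 lower in OE4. The most abundant, the glutamate-cysteine ligase Nitab4.5_0003441g0130, was at 12.2 ± 2.3 in OE4 and 10.6 ± 2.3 in WT4. The nicotianamine list held 2 tested nicotianamine synthases, which make a chelator that moves iron and copper in the phloem. The other 3 tested models in it were described as tyrosine/nicotianamine aminotransferases. Their part in metal handling was not tested, though they count among the metal-handling models here. The most abundant model of the list, the aminotransferase Nitab4.5_0008993g0030, was at 12.6 ± 5.6 in OE4 and 12.8 ± 4.5 in WT4. The 2 nicotianamine synthases were chosen for naming later, outside the rule for named models. The nicotianamine synthase Nitab4.5_0005883g0030 was at 0.40, 3.15 and 3.14 in OE4 replicates 1, 2 and 3 and at 2.11, 5.87 and 7.60 in WT4 replicates 1, 2 and 3 (log2 difference -0.98 ± 0.56 (SE), limma adjusted p = 0.999). The other, Nitab4.5_0000368g0080, was at 0.89, 1.93 and 3.51 in OE4 replicates 1, 2 and 3 and at 3.25, 3.81 and 3.89 in WT4 replicates 1, 2 and 3. Both synthases had their lowest value in OE4 replicate 1, the library lowest in Nitab4.5_0022803g0010, and both sets of groups overlapped. Of 4 tested models matched by a description of copper/zinc superoxide dismutase, 3 were higher in OE4. Of these 4, Nitab4.5_0005167g0010 and Nitab4.5_0012494g0030 were also matched by the heavy metal domain, at log2 differences of 0.12 and 0.14. Whether these 2 are enzymes that remove superoxide was not tested. The models without that domain were at 0.27 and -0.14. The most abundant of the 4, Nitab4.5_0002884g0060, was at 48.7 ± 6.2 in OE4 and 53.9 ± 7.6 in WT4.

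The 5 models with an unadjusted p below 0.05, named after their values were seen, were an NRAMP model and 4 heavy metal domain models. The largest difference was that of Nitab4.5_0006730g0010, a heavy metal domain model at 4.42, 3.79 and 0.22 in OE4 replicates 1, 2 and 3, against 33.1, 16.6 and 8.43 in WT4 replicates 1, 2 and 3. Another heavy metal domain model, Nitab4.5_0004646g0020, was at 11.7, 9.12 and 6.34 in OE4 and 13.63, 19.98 and 13.43 in WT4. Higher in all OE4 libraries were the heavy metal domain models Nitab4.5_0000960g0090, at 3.30, 4.32 and 4.52 in OE4 against 1.43, 1.75 and 1.71 in WT4, and Nitab4.5_0001643g0070, at 13.6, 14.4 and 10.6 in OE4 against 6.31, 7.44 and 5.94 in WT4. The NRAMP model Nitab4.5_0003564g0050 was at 2.03, 1.57 and 2.02 in OE4 against 1.05, 0.66 and 0.69 in WT4. Since these 5 were picked by their unadjusted p, the distance between their groups is part of the choice, and none passed the adjustment over all tested models.

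**Figure D5:**
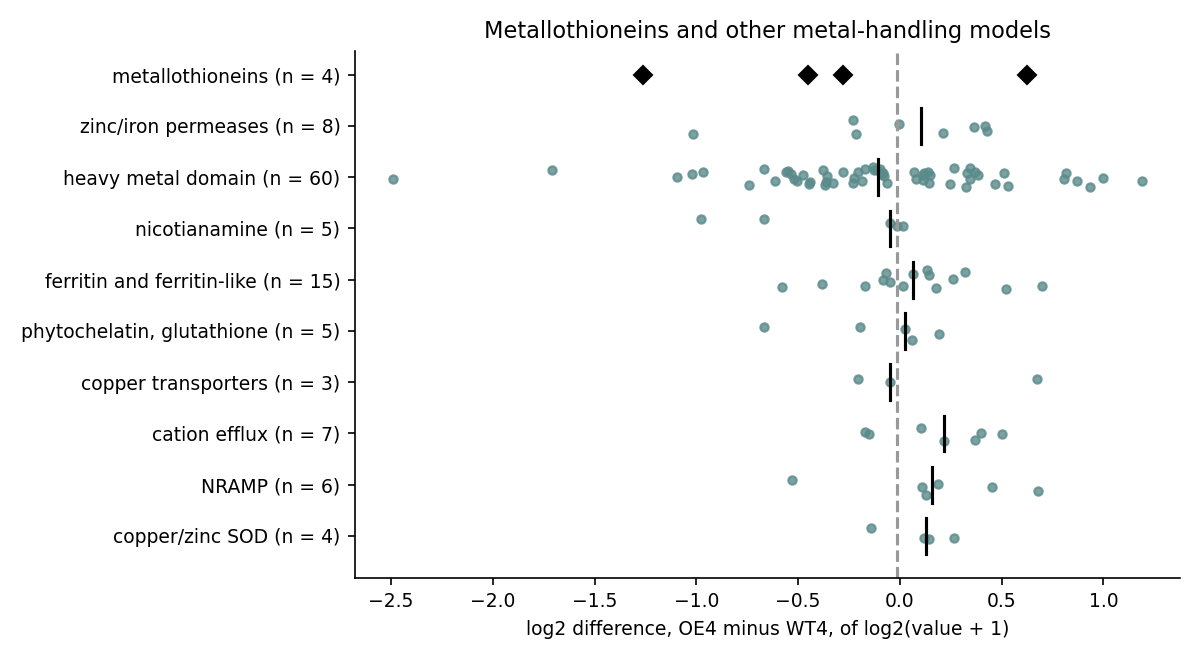
Log2 difference, OE4 minus WT4, of the 4 metallothioneins (diamonds) and of the tested models of 9 metal-handling lists (circles, jittered vertically), with a black bar at each list's median and a dashed line at the median of all tested models, -0.01. Each row of circles spreads to both sides of the dashed line.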

How the data were processed

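The deposited tables, 1 per plant material, hold a normalized abundance signal for 69500 gene models in 3 libraries each. Per the labels' protocols, total RNA was made into paired-end TruSeq libraries. The submitters' processing notes name the tools HISAT2, StringTie and RSEM. The genome build, tool versions and unit are not stated in labels or headers. A joint normalization of both tables is not stated either, and levels compared across them assume it; other scalings were tried. The authors' group means were not used. No gene symbols or sequences of the models were used here.

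Values were transformed to log2(value + 1). Models averaging at least 1 (17962) entered a limma fit (limma 3.58.1, R 4.3.3; trend and robust options, group alone, 4 residual degrees of freedom) and called at a Benjamini-Hochberg adjusted p below 0.05 over all of them. Log2 differences understate changes of low values. The fit was tested on simulated data. Named models were all members, the metallothioneins below the minimum mean, the highest and any called member of each metal-handling list, and the closest profiles. These were the 3 closest profiles of the most abundant member and of the one with the largest difference. Other named models are marked as chosen later. The members and lists were chosen with earlier results of these data known. Alternatives covered the pseudocount, filters, moderation, scalings, a replicate block and leaving out each library.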

Additional observations from a re-analysis of the deposited data

How the results depend on the processing

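No metallothionein and no metal-handling model was called under any of the 14 alternatives. Over them, log2 differences ranged from -1.77 to -0.70 for Nitab4.5_0022803g0010, from -0.84 to -0.03 for Nitab4.5_0006455g0010, from -0.48 to 0.0018 for Nitab4.5_0002557g0020 and from 0.27 to 1.13 for Nitab4.5_0002018g0040. The one change of sign was that of Nitab4.5_0002557g0020 without WT4 replicate 3 (0.0018). The log2 ratio of sums, -0.62, was -0.46 with equal totals, -0.55 with median ratio scaling and -0.87 to -0.12 with a library left out. The whole-table count of 1 became 0 with a pseudocount of 0.1, no filter, equal totals, median ratio scaling, quantile normalization or the replicate block, and was 0 in every fit that left out a library; the cause was not tested. At an unadjusted limma p below 0.05 these fits gave from 345 models (without OE4 replicate 2) to 1183 (replicate block), beside 507 in the main fit. Among them the fit with no filter tested 43495 models and gave 1103, while the others tested 17962. Equal totals moved the median of all models to 0.07.

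Replicate numbers were taken as a number only: same-numbered libraries had deviations from the group means correlated at 0.56, -0.11 and 0.42 over the tested models for numbers 1, 2 and 3, and OE4 replicate 2 did not correlate best with its own number. With the replicate block, Nitab4.5_0022803g0010 kept its difference of -1.26 with an unadjusted p of 0.0031 and an adjusted p of 0.705. Read totals are not known, so counting error could not be given, and 3 libraries a group limit what could be called.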
